A study of Homo sapiens with 22 samples.

Results

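STAU1 and STAU2 encode the human Staufen proteins, and both were found by their symbols in every gene table, as 2 of 58870 gene rows in the siRNA tables and 2 of 57820 gene rows in the actinomycin D tables. The series studied Staufen1 together with FOXA1, which encodes a transcription factor, in 2 human colorectal cancer cell lines, LS180 and HCT116. In the first experiment LS180 cells were treated for 72 h and then for another 72 h with a control siRNA (siCTRL, 2 libraries) or with an siRNA against STAU1 (siSTAU1, 2 libraries), and polyA RNA was sequenced. In the second experiment LS180 and HCT116 cells were sampled at 0, 2 and 4 h of actinomycin D at 5 µg/ml, a drug that blocks transcription, with 3 libraries of total RNA per line and time. The knockdown was made in LS180 only, and the siRNA sequences were not used here.

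Staufen proteins bind double-stranded stretches of RNA through several copies of the double-stranded RNA-binding domain. They carry mRNAs within cells in large ribonucleoprotein granules, a role best known from neurons and oocytes, and they mark some mRNAs for destruction by binding the helicase UPF1, a process called Staufen-mediated decay. STAU1 is expressed in most tissues, STAU2 is best known from the brain, and both proteins can bind UPF1.

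STAU1 (ENSG00000124214) is a protein-coding gene on the minus strand of chromosome 20, from base 49113339 to base 49188367 in GRCh38. STAU2 (ENSG00000040341) is a protein-coding gene on the minus strand of chromosome 8. The siRNA tables listed 10 transcripts for STAU1 and 29 for STAU2, and the actinomycin D tables listed 9 and 29. STAU2-AS1, annotated antisense to STAU2, was listed at 0 in all 22 libraries. A count of 0 allows up to 0.126 CPM (counts per 1000000; 3 counts) in the shallowest siRNA library and 0.0627 in the shallowest actinomycin D library, for counting error only.

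The deposited counts were RSEM expected counts, which divide a read that fits several genes among them, so that the count of a gene need not be a whole number. STAU1 had a whole count (within 0.005) in 22 of 22 libraries. STAU2 had one in 0 of 4 siRNA libraries, in 8 of 9 LS180 and in 1 of 9 HCT116 actinomycin D libraries. The longest stretch shared by a STAU1 and a STAU2 transcript of the GRCh38 annotation was 20 bases, and they shared 0 runs of 25 bases.

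Total counts were 23730000 to 26658700 in the siRNA and 47842300 to 61417800 in the actinomycin D libraries. Levels are given as counts per 1000000 counts (CPM) scaled by the trimmed mean of M values (TMM), and as transcripts per 1000000 transcripts (TPM), which correct for transcript length, where the paralogs are compared with each other. Among the actinomycin D libraries, numbers 2 and 3 of LS180 at 4 h stood apart, with scaling factors of 0.864 and 0.812 against 0.974 to 1.10 in the other 16. All 10 intestinal epithelial markers reached 1 CPM in a library of each experiment, but in HCT116 at 0 h CDX1 and CEACAM5 were listed at 0 and VIL1 stood at 0.050 CPM on average. Nothing in the labels says that a group's libraries were grown as separate cultures. The spread that p-values are based on may therefore be technical. In bulk RNA, fewer cells that express a gene and less RNA per cell cannot be told apart.

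The comparison of siSTAU1 with siCTRL shows how far the targeted paralog was reduced in LS180 and where its partner stood. STAU1 fell 15.1-fold and STAU2 rose 1.20-fold. STAU1 mRNA, the target, was measured at 144 and 141 CPM with siCTRL and at 9.70 and 9.17 CPM with siSTAU1. Both siSTAU1 libraries were far below both siCTRL libraries, from 142.6 ± 2.44 to 9.43 ± 0.375 CPM (SD, n = 2 each). The log2 fold change was -3.92 (SE 0.0571, edgeR adjusted p = 2.15e-12), in a comparison where 46.1% of 14073 genes tested were called, and 0.0284% of them had a lower value. The fall was called in each of 10 alternative fits, between -3.96 and -3.88.

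STAU2 stood at 41.5 and 41.8 CPM with siCTRL and at 48.7 and 51.2 CPM with siSTAU1. The groups did not overlap, at 41.7 ± 0.201 and 49.9 ± 1.76 CPM (SD, n = 2 each). The log2 fold change was 0.26 (SE 0.0585, edgeR adjusted p = 0.00333), and 23% of all genes tested were called higher. Its place among those genes was not extreme, with 79.6% of them at a lower log2 fold change. The call was lost with the effective transcript length as an offset (0.28, edgeR adjusted p = 0.0714), within 0.22 to 0.29 over 10 alternatives. On the TPM scale the STAU2 libraries overlapped, at 22.89 and 26.7 with siCTRL and 26.52 and 29.98 with siSTAU1. The effective length of STAU2, an average over its transcripts that RSEM weights by their estimated shares, was 2375 and 2089 bases in the siCTRL libraries and 2314 and 2058 bases in the siSTAU1 libraries.

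**Figure D1:**
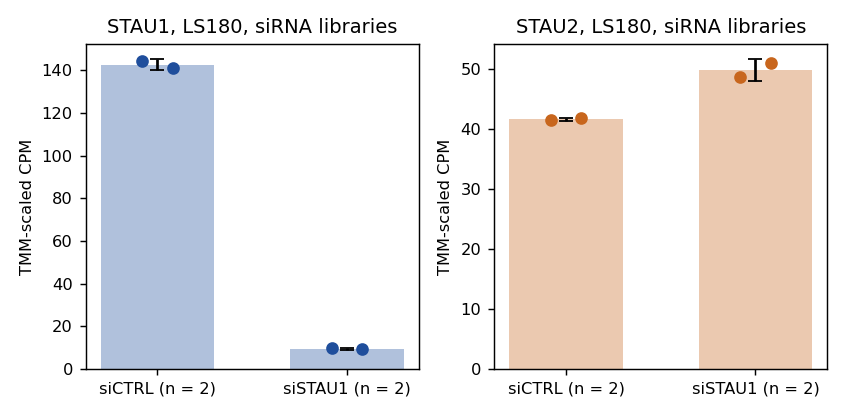
Level of STAU1 (left) and STAU2 (right) in TMM-scaled CPM in LS180 libraries treated with siCTRL or siSTAU1. Points are libraries, bars are means and error bars are SD (n = 2 each); STAU1 lies near 140 CPM with siCTRL and under 10 CPM with siSTAU1, and STAU2 lies between 41.5 and 51.2 CPM in all 4 libraries.

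Per length, STAU1 was the more abundant paralog with siCTRL and STAU2 with siSTAU1. STAU1 reached 61.87 and 62.45 TPM with siCTRL and 4.05 and 3.64 TPM with siSTAU1. The ratio of STAU2 to STAU1 TPM was 0.370 and 0.428 with siCTRL and 6.55 and 8.24 with siSTAU1, an 18.5-fold higher mean. The mean difference between groups was -58.3 TPM for STAU1 and 3.46 TPM for STAU2, which is 5.92% of the STAU1 loss. The summed TPM of both genes was 84.8 and 89.2 with siCTRL and 30.6 and 33.6 with siSTAU1, a mean of 36.9% of the control. These TPM values and ratios are descriptions with no test.

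Staufen proteins belong to a wider group of proteins with the double-stranded RNA-binding domain, of which 20 genes including STAU1 and STAU2 were ranked by mean TPM. STAU1 was in place 6 of 20 with siCTRL and in place 16 with siSTAU1, and STAU2 moved from place 11 to place 9. The genes that dropped below STAU2 were STAU1 itself and DROSHA, which went from a mean of 31.96 to 23.47 TPM, while the TPM of STAU2 overlapped between the groups. Of the 18 other genes 15 passed the filter on low counts, and with siSTAU1 10 of these fell and 1 rose, where 23% of all genes tested were called lower and 23% higher, with a median log2 fold change of -0.19 against 0.0010 over all genes tested. Among the falls were those of DUS2, a tRNA dihydrouridine synthase (-0.48, SE 0.0856, edgeR adjusted p = 0.000727), and DROSHA (-0.47, SE 0.0604), the nuclease that starts microRNA processing, whose partner DGCR8 also fell (-0.35). SON, a splicing cofactor, had -0.31, and ADAR, which edits adenosine in duplex RNA, had -0.25. TARBP2, a partner of Dicer that was chosen for mention after its value was seen, rose by 0.27.

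Of 13 factors of Staufen-mediated decay 10 fell and 1 rose with siSTAU1, beside 23% of all genes called in each direction (6 and 1 with an effective length offset, 7 and 1 with DESeq2 and also without siCTRL library 1), at a median log2 fold change of -0.33. SMG5, which helps remove phosphate from UPF1, had -1.23 (SE 0.0379, edgeR adjusted p = 1.50e-09). UPF1 itself, the helicase that Staufen proteins bind, went from 128.9 ± 1.81 to 83.5 ± 0.280 CPM (SD, n = 2 each; log2 fold change -0.63). SMG9, a regulator of the kinase that acts on UPF1, had -0.96. The member that rose was PNRC2, an adaptor to the decapping machinery, at 0.44 (SE 0.0328). SMG5, UPF1, SMG9 and PNRC2 were each called in all 10 alternatives.

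Of 7 genes listed as targets of Staufen-mediated decay 5 passed the filter on low counts, and 4 rose and 0 fell with siSTAU1, at a median of 0.53, where 23% of all genes were called higher. JUN, a subunit of the transcription factor AP-1, went from 25.4 ± 0.278 to 45.5 ± 1.81 CPM (SD, n = 2 each) and was called in all 10 alternatives. KLF2 (0.53) encodes a zinc finger transcription factor, and ARF1 (0.12) a small GTPase of the Golgi. SOWAHC was at -0.083 and was not called. The members of the Staufen-mediated decay targets list called higher numbered 2 with DESeq2, with an effective length offset and without siCTRL library 2, and 1 without siCTRL library 1. FOXA1 itself was measured at 63.9 ± 0.895 CPM with siCTRL and 70.5 ± 0.307 CPM with siSTAU1 (SD, n = 2 each). Its log2 fold change was 0.14 (SE 0.0470, edgeR adjusted p = 0.0270), where 23% of all genes were called higher.

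Staufen granules hold other RNA-binding proteins and motor proteins. Of 14 genes of such granule partners tested 6 fell and 0 rose, at a median of -0.10, where 23% of all genes were called in each direction. The fall was -0.36 for HNRNPU, a nuclear ribonucleoprotein, -0.37 for KIF5B, a kinesin heavy chain, -0.32 for PUM2, a translational repressor, and -0.23 for SYNCRIP, an mRNA-binding protein. Markers of other cells were measured in the same libraries. The summed fibroblast markers were 4.72 to 5.13 CPM with siCTRL and 15.3 to 16.8 CPM with siSTAU1, and 2 of 6 reached 1 CPM. These were LUM, at 1.49 ± 0.341 and 9.999 ± 1.16 CPM, and COL3A1, at 2.51 ± 0.0529 and 5.30 ± 0.442 CPM (SD, n = 2 each), and both rose. PDGFRB, COL1A1 and DCN were under 1 CPM and COL1A2 was listed at 0. The summed immune markers were 225 to 235 CPM with siCTRL and 93.9 to 96.2 CPM with siSTAU1, and 2 of 5 reached 1 CPM. CD14 was higher with siSTAU1 (4.00 ± 0.549 against 2.81 ± 0.365 CPM) and LYZ lower (91.0 ± 1.15 against 227.1 ± 7.12 CPM; SD, n = 2 each), and both were called. CD3E was listed at 0, and PTPRC was at no more than 0.0209 CPM on average. Endothelial markers summed to 2.05 to 3.37 CPM. The part of these genes in the results was not tested.

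**Figure D2:**
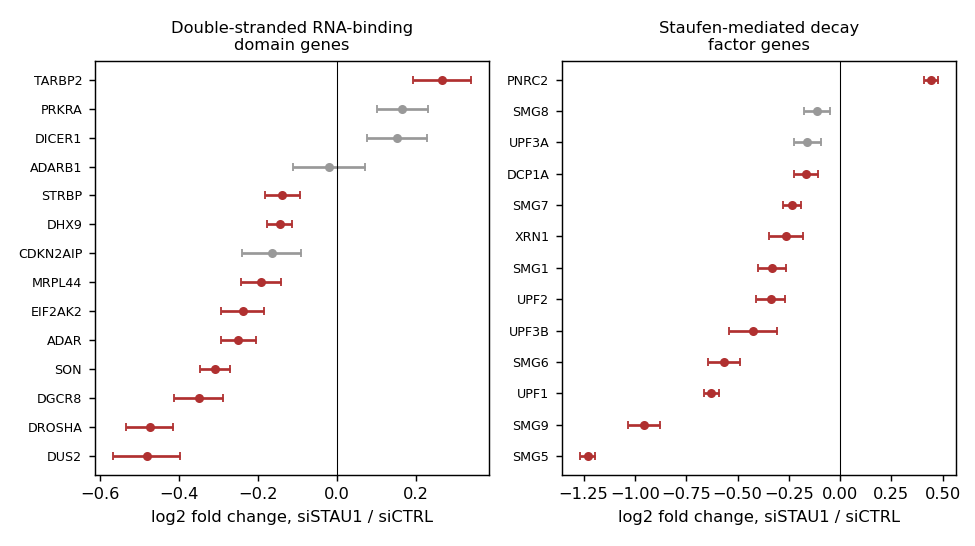
Log2 fold change with siSTAU1 against siCTRL of the tested genes with a double-stranded RNA-binding domain (left, 14 of 15 genes) and of Staufen-mediated decay factors (right, 13 genes). Points are fitted values, bars are standard errors, and red marks an edgeR adjusted p under 0.05; SMG5 is lowest at -1.23 and PNRC2 is the 1 decay factor that is called higher.

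The LS180 and HCT116 libraries at 0 h show how the paralogs differ between the lines. HCT116 had more STAU1 mRNA and less STAU2 mRNA than LS180. STAU1 stood at 75.2, 72.6 and 71.0 CPM in LS180 and at 83.8, 87.8 and 85.7 CPM in HCT116. The lines did not overlap, and the log2 fold change of HCT116 over LS180 was 0.23 (SE 0.0526, edgeR adjusted p = 0.000553), where 76.3% of 17256 genes tested were called, 33.7% higher and 42.6% lower. STAU2 stood at 40.6, 39.8 and 44.6 CPM in LS180 and at 31.6, 28.6 and 27.9 CPM in HCT116. Every HCT116 library was below every LS180 library, and the log2 fold change was -0.50 (SE 0.0615, edgeR adjusted p = 5.28e-07), which is 1.42-fold.

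Neither line difference was unusual in size, because 21.1% of genes tested had a smaller absolute log2 fold change than STAU1 and 40.5% a smaller one than STAU2. Both were called in each of 15 alternatives, between 0.21 and 0.51 for STAU1 and between -0.60 and -0.23 for STAU2. All genes tested had a median of -0.10, and relative to that median over the settings STAU1 lay at 0.31 to 0.40 and STAU2 at -0.50 to -0.34.

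The plot of STAU2 to STAU1 ratios shows the same contrast within each library, where scaling between libraries has no part. The TPM ratio was 0.704 to 0.891 in the 9 LS180 libraries, with a median of 0.762, and 0.408 to 0.483 in the 9 HCT116 libraries, with a median of 0.442. The lines did not overlap, and the LS180 mean was 1.77, 1.70 and 1.81 times the HCT116 mean at 0, 2 and 4 h. The ratio of expected counts, which does not use the length estimate, was also separate, at 0.516 to 0.655 in LS180 and 0.326 to 0.382 in HCT116. STAU1 was the more abundant paralog per length in all 18 libraries.

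**Figure D3:**
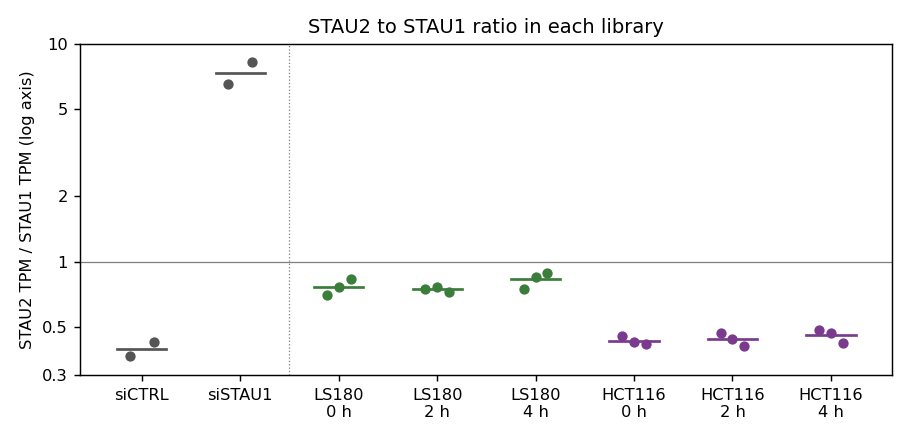
Ratio of STAU2 to STAU1 TPM in each of 22 libraries, on a log axis. Points are libraries and short lines are group means (n = 2 in the siRNA groups, n = 3 in the others), the dotted line separates the experiments, and the grey line marks equal levels; siSTAU1 alone lies above it, and LS180 lies above HCT116 at each time.

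The estimated effective length of STAU2 also separated the lines, by a narrow margin. The effective length of STAU2 was 2117 to 2333 bases in LS180, with a median of 2224, and 2338 to 2580 bases in HCT116, with a median of 2419. The lines did not overlap at any time, but how many other genes separate likewise was not counted. In the siRNA experiment the 2 siCTRL libraries of LS180 lay at 2375 and 2089 bases, although they had the same treatment. STAU1 showed no such separation, with 3016 to 3079 bases in LS180 and 3039 to 3067 bases in HCT116. The annotation holds 17 protein-coding STAU2 transcripts of 550 to 4061 bases and 10 of STAU1 of 643 to 3684 bases. Effective length is an estimate from short reads, and the transcripts themselves were not analysed here.

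In the ranking by TPM of 20 genes with the double-stranded RNA-binding domain, STAU1 held place 7 in LS180 and place 6 in HCT116 at 0 h, and STAU2 held places 9 and 13. These ranks are within a line and an experiment, since the top 10 rows took 63.4 to 69.6% of TPM in the total RNA libraries and 7.51 to 8.09% in the polyA libraries. Among the other genes of that list, 7 were higher and 8 lower in HCT116 at 0 h out of 15 tested, where 33.7% and 42.6% of all genes were called (7 and 2 when scaled to ribosomal protein genes). Staufen-mediated decay factors had 9 higher and 3 lower of 13, at a median of 0.25 against -0.10 over all genes, and granule partners had 9 higher and 3 lower of 15, at a median of 0.28.

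The actinomycin D series asked how much of each mRNA remained once transcription was blocked. As all CPM are relative to the RNA that remains, a value above that at 0 h does not mean more molecules. With TMM scaling both Staufen mRNAs were higher at 4 h than at 0 h in both lines, and with ribosomal protein scaling both were lower. FOXA1 went from 38.6 ± 1.78 to 3.59 ± 0.828 CPM in LS180 and from 2.58 ± 0.520 to 0.283 ± 0.145 CPM in HCT116 (SD, n = 3 each). The 2 h and 4 h comparisons of a line share its 0 h libraries.

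In LS180, STAU1 measured 80.1, 78.3 and 84.6 CPM at 2 h and 88.8, 83.7 and 78.4 CPM at 4 h, after 72.9 ± 2.12 CPM at 0 h (SD, n = 3). All 6 treated libraries were above the 3 libraries at 0 h, and 2 h and 4 h overlapped. The log2 fold change was 0.15 at 2 h (SE 0.0526, edgeR adjusted p = 0.0299), where 37.4% of genes were called, 13.5% higher and 23.9% lower, and it turned to -0.081 with ribosomal protein scaling. That call held in 8 of 15 alternatives. It was lost without LS180 0 h library 2 (0.15) or 3 (0.13) and without LS180 2 h library 1 (0.16) or 3 (0.12). Without LS180 2 h library 2 the value was 0.30, but the median of all genes also moved, from -0.020 to 0.091. Relative to the median, STAU1 was at 0.17 with all libraries and at 0.21 without that library. The log2 fold change of STAU1 was 0.20 at 4 h (SE 0.0527, edgeR adjusted p = 0.00342), where 57.7% were called, 26.6% higher and 31.1% lower. It turned to -0.34 (edgeR adjusted p = 0.0143) when the libraries were scaled to ribosomal protein genes. Between 2 h and 4 h it was 0.046 (edgeR adjusted p = 0.567), where 30.7% of genes were called, 12.2% higher and 18.5% lower.

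STAU2 in LS180 measured 45.6, 44.5 and 44.1 CPM at 2 h and 45.8, 51.9 and 51.3 CPM at 4 h, after 41.7 ± 2.59 CPM at 0 h (SD, n = 3). The libraries at 2 h overlapped with those at 0 h, because library 3 at 0 h reached 44.6 CPM. With TMM scaling the libraries at 4 h lay above both, but how many other genes separate likewise was not counted. Of all genes tested 13.5% were called higher at 2 h, 26.6% at 4 h and 12.2% from 2 h to 4 h. The log2 fold change was 0.10 at 2 h (edgeR adjusted p = 0.210) and 0.25 at 4 h (SE 0.0609, edgeR adjusted p = 0.00151), and the latter was -0.30 (edgeR adjusted p = 0.00199) when scaled to ribosomal protein genes. The 2 h value was called without LS180 2 h library 2 (0.23), where the median of all genes was 0.091. Relative to the median it was 0.14, against 0.12 with all libraries. Without LS180 4 h library 1 the 4 h value was 0.44, where the median was 0.090. Relative to the median it was 0.35, against 0.25 with all libraries. From 2 h to 4 h the log2 fold change of STAU2 was 0.15 (edgeR adjusted p = 0.0671), and it was called without LS180 4 h library 1 (0.21).

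In HCT116, STAU1 measured 88.2, 96.8 and 94.97 CPM at 2 h and 94.8, 95.7 and 95.5 CPM at 4 h, after 85.8 ± 2.04 CPM at 0 h (SD, n = 3). The treated libraries lay above those at 0 h, by a narrow margin at 2 h. The log2 fold change was 0.12 at 2 h (edgeR adjusted p = 0.0873), where 31% of genes were called, 13.8% higher and 17.1% lower, and it was called without HCT116 2 h library 1 (0.16). It was 0.15 at 4 h (SE 0.0524, edgeR adjusted p = 0.0210), where 49.9% were called, 26.2% higher and 23.7% lower, and -0.25 (edgeR adjusted p = 0.0906) when scaled to ribosomal protein genes. The call at 4 h held in 6 of 15 alternatives and was lost, among others, without HCT116 0 h library 1 (0.14) and without HCT116 4 h library 1 (0.14), 2 (0.11) or 3 (0.11). Between 2 h and 4 h the value was 0.031 (edgeR adjusted p = 0.762), where 15.8% were called, 4.85% higher and 11% lower. The 837 genes called higher became 255 and 214 without HCT116 2 h library 2 or 3, and 1270, 251 and 252 without HCT116 4 h library 1, 2 or 3.

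STAU2 in HCT116 measured 33.4, 33.0 and 32.6 CPM at 2 h and 36.2, 35.6 and 34.0 CPM at 4 h, after 29.4 ± 1.98 CPM at 0 h (SD, n = 3). With TMM scaling the 3 times did not overlap, but how many other genes separate likewise was not counted. Of all genes tested 13.8% were called higher at 2 h, 26.2% at 4 h and 4.85% from 2 h to 4 h. The log2 fold change was 0.17 at 2 h (edgeR adjusted p = 0.0491), -0.060 with ribosomal protein scaling, and 0.26 at 4 h (SE 0.0616, edgeR adjusted p = 0.00149), where the ribosomal protein scaling gave -0.13 (edgeR adjusted p = 0.186). The 2 h call held in 4 of 15 alternatives and was lost without HCT116 0 h library 2 (0.15) or 3 (0.13) and without HCT116 2 h library 1 (0.16), 2 (0.14) or 3 (0.15). From 2 h to 4 h it was 0.098 (edgeR adjusted p = 0.308).

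**Figure D4:**
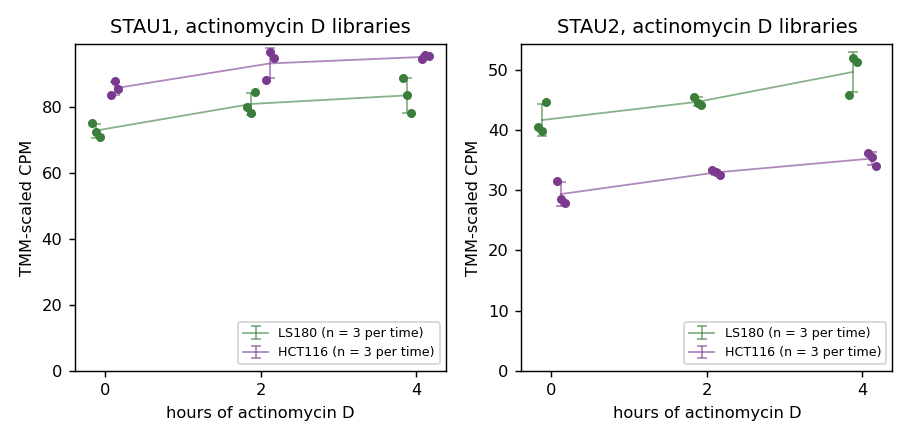
Level of STAU1 (left) and STAU2 (right) in TMM-scaled CPM against hours of actinomycin D in LS180 and HCT116. Points are libraries, lines join group means and error bars are SD (n = 3); HCT116 is higher for STAU1 and lower for STAU2 at each time, and the slope over time turns downward when libraries are scaled to ribosomal protein genes.

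The sign of the changes over time therefore depended on the scaling. A change of scaling shifts all genes by nearly the same amount, so the place among all genes can hardly depend on it. With ribosomal protein scaling the median of all genes in LS180 at 4 h was -0.54, against 0 with TMM scaling. Relative to the median of all genes, over 17 settings, LS180 at 4 h gave 0.18 to 0.32 for STAU1 and 0.17 to 0.38 for STAU2. The share of genes with a lower value than STAU1 was 61.2 to 78.3%, and that for STAU2 was 63.4 to 72.9%. For STAU1 it was 65.1% with TMM and 64.8% with ribosomal protein scaling. Both ends of its range came from left-out libraries, LS180 4 h library 1 (61.2%) and libraries 2 and 3 (78.3%). In HCT116 at 4 h, over 16 settings, the shares were 56.5 to 67.4% for STAU1 and 68.9 to 74.9% for STAU2. The split of all calls moved too: 36.1% of genes called in LS180 at 2 h were higher with TMM and 59.1% with size factors by relative log expression, and at 4 h 46.1% and 56.7%, while ribosomal protein scaling gave 0.955% and 1.17% and the total library size 22.4% and 22.7%. In HCT116 at 4 h, 52.5% of calls were higher with TMM, 34.0% with the total library size and 1.51% with ribosomal protein scaling, and at 2 h 44.7%, 20.4% and 0.826%. For HCT116 against LS180 at 0 h the share was 44.2% with TMM and 57.9% with ribosomal protein scaling, and for the line difference at 4 h 90.3% with TMM and 77.1% with relative log expression. That last split did not keep its direction under other choices, at 41.6% with a filter of 1 CPM and 43.1% without LS180 4 h library 1. Without LS180 4 h libraries 2 and 3, chosen after seeing the data, the value at 4 h in LS180 was 0.42 for STAU1 and 0.27 for STAU2.

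**Figure D5:**
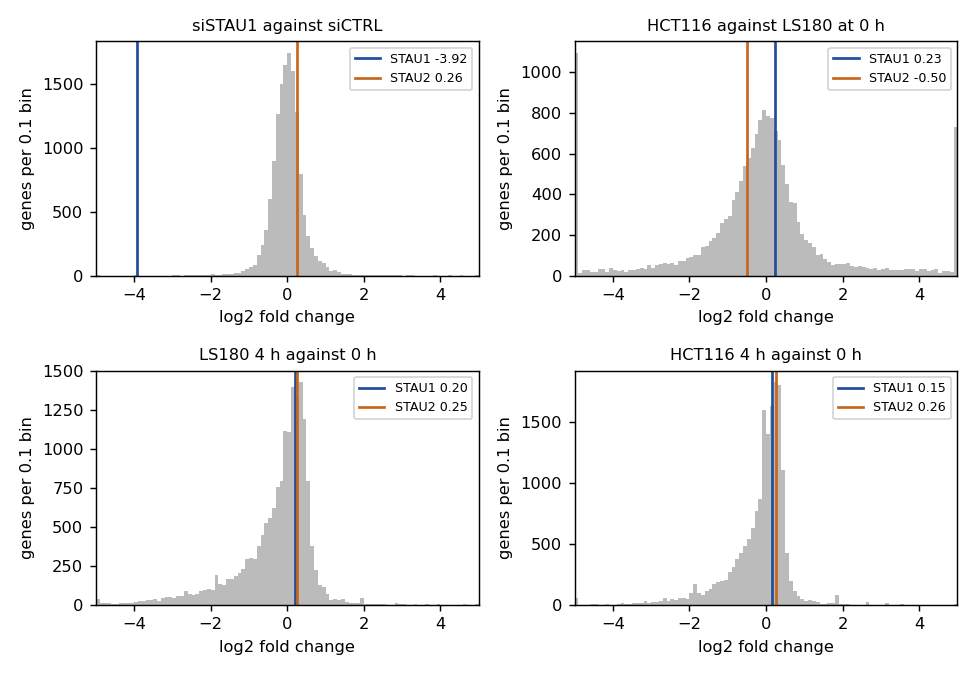
Number of tested genes per bin of 0.1 in log2 fold change (grey) in 4 comparisons, with STAU1 (blue) and STAU2 (orange) marked; the outermost bins hold all values beyond them. STAU1 lies far in the lower tail with siSTAU1 at -3.92, and both paralogs lie within the bulk of genes in the other comparisons, with TMM scaling.

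The 4 h change did not differ detectably between the lines for either paralog. The difference, HCT116 minus LS180, was -0.045 for STAU1 (95% interval -0.20 to 0.11, edgeR adjusted p = 0.819) and 0.011 for STAU2 (95% interval -0.17 to 0.19, edgeR adjusted p = 1.00), where 13.7% of genes were called, 12.3% higher and 1.33% lower. The split over all genes, 2129 higher and 230 lower, became 1919 and 2536 without LS180 4 h library 1, 1253 and 1757 with a filter of 1 CPM, and 1143 and 972, 1051 and 673, and 1079 and 830 without HCT116 4 h library 1, 2 or 3. At 2 h it was -0.030 for STAU1 and 0.065 for STAU2, where 5.64% were called, 5.24% higher and 0.394% lower. For STAU1 the 4 h difference was called without LS180 4 h libraries 2 and 3 (-0.30, edgeR adjusted p = 0.0494), a fit that leaves 1 LS180 4 h library, assumed to vary like the other groups, and with the filter that asks for 1 CPM in all libraries of 1 group (-0.23, edgeR adjusted p = 0.0346).

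Ordered by mean TMM-scaled CPM, the STAU1 groups ran from LS180 at 0 h (72.9) through LS180 at 2 h (81.0) and 4 h (83.6) to HCT116 at 0 h (85.8), 2 h (93.3) and 4 h (95.3). Neighbours in this order overlapped between LS180 at 2 h and 4 h, between LS180 at 4 h and HCT116 at 0 h, and between HCT116 at 2 h and 4 h. For STAU2 the order began with HCT116 at 0 h (29.4), 2 h (33.0) and 4 h (35.3) and went on with LS180 at 0 h (41.7), 2 h (44.7) and 4 h (49.7), and the only overlap was between LS180 at 0 h and 2 h. How many other genes separate likewise was not counted. The order over time within a line depends on the scaling, since with ribosomal protein scaling the changes over time were negative for both genes in both lines.

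Other genes of the Staufen pathway were measured in the same libraries. In LS180 at 4 h the genes with the double-stranded RNA-binding domain had 6 higher and 5 lower of 15, decay factors 2 higher and 5 lower of 13, and granule partners 4 higher and 4 lower of 15, where 26.6% of all genes were called higher and 31.1% lower. With ribosomal protein scaling these counts were 0 and 12, 0 and 12, and 0 and 12. In HCT116 they were 7 and 5, 4 and 3, and 6 and 4 with TMM scaling, where 26.2% and 23.7% of all genes were called, and 0 and 7, 1 and 6, and 0 and 8 with ribosomal protein scaling. SMG8, a partner of SMG9, fell, at a log2 fold change of -2.60 in LS180 and -1.59 in HCT116. DCP1A, a decapping cofactor, had -1.60 and -0.89, and PNRC2 had -1.05 and -0.68. CDKN2AIP, a nuclear RNA-binding protein, had -2.04 and -1.34. These 4 genes were called lower in all alternatives of both lines. UPF3B, a member of the complex that UPF1 joins, was higher by 0.48 in LS180 and 0.75 in HCT116, the former -0.057 with ribosomal protein scaling. MRPL44, a protein of the mitochondrial ribosome, had -0.55 in LS180 and -0.74 in HCT116. STRBP, an RNA-binding protein first known from sperm, had 0.42 and 0.37, and YBX1, a cold-shock domain protein, had 0.56 and 0.45, and neither was called higher with ribosomal protein scaling. In LS180, DUS2 had -0.74, DGCR8 -0.65, PURA, a single-stranded nucleic acid binder, -0.70, and FXR2, a relative of the fragile X protein, -0.51. In HCT116 PUM2 had -0.81.

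Of 5 tested Staufen-mediated decay targets 4 were lower and 1 higher in LS180 at 4 h, where 31.1% of all genes were called lower, at a median of -2.40 against 0 over all genes. In HCT116 3 were lower and 1 higher, at a median of -1.44, where 23.7% of all genes were called lower. With ribosomal protein scaling 5 were lower in LS180 and 4 in HCT116, and 0 were higher. KLF2 had a log2 fold change of -3.68 in LS180 and -3.67 in HCT116, JUN had -2.73 and -3.14, and SOWAHC had -2.40 and -1.44. ARF1 was the member that was higher, at 0.38 and 0.30, and it turned to -0.18 and -0.094 with ribosomal protein scaling.

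The genes whose log2 CPM followed each paralog most closely over the 18 actinomycin D libraries were taken from 9936 genes with a mean of at least 5 CPM. For STAU1 these were BRWD3, a bromodomain protein (Pearson r = 0.986), PTPN11, a tyrosine phosphatase (0.967), SNRNP200, a spliceosome helicase (0.966), CHD3, a chromatin remodeller (0.964), and DNAJC13, an endosomal cochaperone (0.963). For STAU2 they were UFM1, a ubiquitin-like modifier (0.992), SERINC1 (0.991) and SERINC3 (0.990), membrane proteins, ARPC5, an actin nucleation subunit (0.991), and ZFAND6 (0.990). Because the paralogs differ between the lines, this choice favours genes that differ between the lines in the same direction. STAU1 and STAU2 had r = -0.52 with each other over 18 libraries, but 0.47 within the 9 LS180 and 0.69 within the 9 HCT116 libraries. These coefficients are descriptions over libraries that share a line, a time series and their scaling.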

How the data were processed

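Gene tables of 22 libraries were used. Per the labels' protocols, libraries were stranded, from mRNA (siRNA) or total RNA (actinomycin D). The tools named in the submitters' processing notes are cutadapt, STAR 2.7 and RSEM 1.3.1, and the builds are hg38 (siRNA libraries) and hg19 (actinomycin D libraries). The sources used here give neither annotation release nor strand setting. Every deposited table held expected counts, TPM values and effective lengths in bases, as the authors made them. Build, RNA selection and depth differed, so levels were not compared between the experiments.

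Groups came from the labels. Expected counts were rounded and tested with edgeR 4.0.16 in R 4.3.3 (TMM, filterByExpr by group, quasi-likelihood, two-sided, Benjamini-Hochberg over all genes tested, threshold 0.05). The siRNA fit had 4 libraries and 14073 genes (2 residual degrees of freedom), the actinomycin D fit 18 libraries in 6 groups and 17256 genes (12 residual degrees of freedom). Standard errors are the absolute log2 fold change over the square root of F. Fits were tested on simulated data.

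The members, gene lists and tests were chosen with earlier results of these data known. The text names both paralogs everywhere, from each list up to 6 (double-stranded RNA-binding domain) or 4 members with the smallest adjusted p in siSTAU1 against siCTRL and in 4 h against 0 h of each line, and the 5 genes most like each paralog by Pearson r (log2 CPM, prior 1). A few genes chosen by this rule are left unreported. Replicate numbers were checked for pairing, which was not established. Alternatives were RLE size factors, DESeq2 1.42.0, other filters, effective length offset, total library size, ribosomal protein scaling, only the groups compared, a replicate block and each library left out. Transcripts came from a GRCh38 annotation. Python 3.11.15, pandas 2.3.3 and matplotlib 3.10.9 were used.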

Additional observations from a re-analysis of the deposited data

Results flagged for a closer look

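For 11 of 26 named genes of the Staufen pathway and the STAU1 neighbourhood the 4 h change under actinomycin D differed between the lines, by the edgeR test of the difference itself (HCT116 minus LS180, log2; adjusted p under 0.05). Neither paralog was among them. Of all genes tested 13.7% were called, 12.3% higher and 1.33% lower, and the median difference was 0.060. This split over all genes did not keep its direction under other choices, with 1253 higher and 1757 lower with a filter of 1 CPM. Over the settings the median difference ran from -0.12 to 0.21. The named genes had been chosen for their change at 4 h in these libraries.

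The difference was positive for the decay factors SMG8 (1.01, edgeR adjusted p = 1.22e-06), DCP1A (0.71) and PNRC2 (0.37) and for the decay target SOWAHC (0.97). It was positive too for CDKN2AIP (0.70), DUS2 (0.50) and DGCR8 (0.44), which have a double-stranded RNA-binding domain, and for the granule partner FXR2 (0.43). Of the chromosome 20 neighbours, PREX1 had 0.74, ZNFX1 0.37 and DDX27 0.31. The difference for SMG8 was called in 22 of 22 alternatives and that for DDX27 in 9 of 22.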

How the results depend on the processing

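The siSTAU1 fall of STAU1 and both line differences at 0 h kept their call in all alternatives, and the siSTAU1 rise of STAU2 was lost with an effective length offset (0.28). Scaled to ribosomal protein genes, the values at 2 h against 0 h, 4 h against 0 h and 4 h against 2 h reversed, to -0.081, -0.34 and -0.26 for STAU1 in LS180, -0.10, -0.25 and -0.14 for STAU1 in HCT116, -0.13, -0.30 and -0.17 for STAU2 in LS180 and -0.060, -0.13 and -0.070 for STAU2 in HCT116. The line difference of STAU1 at 4 h became 0.095. With total library size STAU1 gave 0.11, 0.0036 and -0.10 in LS180, 0.034 (4 h against 0 h) and -0.022 (4 h against 2 h) in HCT116 and 0.031 for the line difference at 4 h, and STAU2 gave 0.047 (4 h against 0 h) and -0.0096 (4 h against 2 h) in LS180 and 0.0999 and 0.15 (2 h and 4 h against 0 h) in HCT116. STAU1 in HCT116 gave 0.14 at 2 h with DESeq2, and at 4 h 0.11 with a filter of 1 CPM, 0.12 without a filter and 0.11 with only the groups compared. STAU1 in LS180 at 2 h gave 0.14 with the length offset. STAU2 in LS180 was called at 2 h with a filter of 1 CPM (0.22), DESeq2 (0.22), no filter (0.23) and RLE (0.22), and from 2 h to 4 h with a filter of 1 CPM (0.18), DESeq2 (0.16), the length offset (0.19) and RLE (0.16). STAU2 in HCT116 at 2 h lost its call with a filter of 1 CPM (0.13), the length offset (0.14), no filter (0.14) and only the groups compared (0.14). The line difference of STAU1 at 4 h was called with a filter of 1 CPM (-0.23) and without LS180 4 h libraries 2 and 3 (-0.30), which leaves 1 LS180 4 h library that is assumed to vary like the other groups. That of STAU2 reversed at 2 h with a filter of 1 CPM (-0.087), DESeq2 (-0.035), no filter (-0.085) and RLE (-0.036), and at 4 h with those (-0.17, -0.072, -0.14 and -0.078), the length offset (-0.061) and without LS180 4 h libraries 2 and 3 (-0.037). The cause was not tested.

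Leaving out 1 library at a time gave, for STAU1, 0.12 to 0.30 in LS180 at 2 h, 0.072 to 0.16 and 0.11 to 0.17 in HCT116 at 2 h and 4 h, -0.0068 to 0.049 in HCT116 from 2 h to 4 h, and -0.21 to 0.0099 for the line difference at 2 h. For STAU2 it gave 0.070 to 0.23 in LS180 at 2 h, 0.11 to 0.21 in LS180 from 2 h to 4 h, 0.13 to 0.22 in HCT116 at 2 h, and -0.085 to 0.12 and -0.21 to 0.070 for the line difference at 2 h and 4 h. Some of these fits shifted all genes, as without LS180 2 h library 2, where the median of all genes in LS180 at 2 h was 0.091. As ratios of expected counts, STAU2 to STAU1 was 0.292 with siCTRL, 5.30 with siSTAU1, 0.572, 0.553 and 0.597 in LS180 and 0.343, 0.354 and 0.370 in HCT116 at 0, 2 and 4 h.

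Pairing by replicate number was not established, since this was taken to need every same-numbered pair to correlate above 0.1, a cutoff set by choice. Same-numbered libraries correlated at -0.052 in the siRNA experiment. This is 1 value, because the 2 libraries of a group deviate from their mean by equal and opposite amounts. The correlations were -0.074 to 0.061 within LS180 and 0.057 to 0.27 within HCT116. In these lines 4 of 9 and 8 of 9 pairings were best with their own number, so that the HCT116 numbers give a hint of pairing. With a replicate block STAU2 in LS180 from 2 h to 4 h was called (0.15), and no other call for either paralog changed. Genes called with siSTAU1 were 3242 higher and 3240 lower, against 2111 and 2121 with DESeq2, 1968 and 2105 without siCTRL library 1, and 2108 and 2213 without siCTRL library 2.

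With 2 libraries per siRNA group the spread rests on few samples. STAU2 had 1001 to 1272 counts per siRNA library, and STAU1 had 242 and 228 counts in the siSTAU1 libraries. The standard errors of the log2 fold changes with siSTAU1 were close, at 0.0571 for STAU1 and 0.0585 for STAU2.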

Other observations

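Genes next to STAU1 on chromosome 20 had far smaller log2 fold changes than STAU1 with siSTAU1. CSE1L, an export receptor gene (49046246 to 49096960, GRCh38), and DDX27, an RNA helicase gene (49219295 to 49244077), lie on either side of it on the plus strand. Of 5 neighbours tested with siSTAU1, 3 fell and 1 rose, where 46.1% of all genes were called, with DDX27 at -0.42, ARFGEF2, a Golgi exchange factor, at -0.26, ZNFX1, an antiviral helicase, at -0.26 and CSE1L at 0.16, against -3.92 for STAU1. In HCT116 against LS180 at 0 h 3 of the 5 were higher and 2 lower, where 76.3% of all genes were called, while STAU1 was at 0.23.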
